A study of Mus musculus with 6 samples.

Results

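Expression of 8 genes of the AKT and mTOR signaling pathway was examined in liver tumors of CMRtdT mice. They are the kinases *Akt1* and *Akt2*, the AKT substrate and mTORC1 inhibitor *Akt1s1* (encoding PRAS40), the kinase *Mtor*, its partner subunits *Rptor* and *Rictor*, and the complex partners *Tsc1* and *Tsc2*. They were chosen by their role in the pathway and not by their values, found by gene symbol after the transcript values were summed per gene, and all 8 of 8 were measured among 35683 genes. The study used AKT activation to ask what lets hepatocytes with an active β-catenin survive and grow. It also reported raised staining of phosphorylated AKT and PRAS40, and of the lipogenic enzymes FASN and SCD1, in tumors of this model. Those are protein signals, which were not measured here. The question here was how much of each pathway mRNA the tumors carry, in what proportions, and how far single tumors differ.

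The samples are 6 tumors excised from the livers of 2 male CMRtdT mice on a C57BL/6 background, 3 from each mouse. All 6 belong to 1 condition. The mice carry 1 *Ctnnb1* ex3fl allele, from which Cre deletes exon 3 to leave an active β-catenin, the *MUP-uPA* transgene, whose product injures hepatocytes, and a Cre-dependent tdTomato reporter at *Rosa26*. High-fat feeding began at 6 weeks of age, followed at 8 weeks by AAV carrying Cre under the hepatocyte-specific TBG promoter, and the tumors were collected 6.5 months after that injection. They are called M1T1, M1T2 and M1T3 (mouse 1, tumors 1 to 3) and M2T1, M2T2 and M2T3 (mouse 2). No non-tumor liver, no other genotype and no tumor with an engineered AKT allele is compared here, and whole tumors were sequenced, so other cells of the tumor contribute. Tumors of 1 mouse share an animal, so a comparison between the mice sets 1 animal against 1 other.

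AKT kinases act downstream of insulin and growth factor receptors, through PI3K and the kinase PDK1. Active AKT phosphorylates TSC2 and PRAS40, which releases RHEB and mTORC1, the complex of mTOR with raptor (*Rptor*) that drives protein and lipid synthesis. mTOR with rictor (*Rictor*) forms mTORC2, which in turn phosphorylates AKT. In liver, AKT2 carries much of the insulin signal that restrains glucose output through FOXO factors and promotes lipogenesis through SREBF1. Most of this control is by phosphorylation, which mRNA levels do not show.

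Each library held 19130532 to 27681766 estimated counts, of which 6.85% to 18.4% came from mitochondrial genes, and 10339 to 13018 genes reached 1 TPM. M1T1 stood apart from the other 5. Its 10 hepatocyte marker mRNAs, albumin among them, summed to 1728 TPM against 33760 to 58840 TPM in the other tumors, each of the 10 being lowest there, while its 6 proliferation markers summed to 468 against 66.8 to 78.3 TPM and were all highest there. By TPM the cholangiocyte list summed to 44.2 against 4.61 to 36.4, with 4 of 6 genes highest there on that scale. *Cftr* was under 1 TPM in every tumor. Endothelial (12.4 against 44.0 to 100.2 TPM), macrophage (108.6 against 205.1 to 746.5 TPM) and B cell (1.30 against 2.60 to 6.83 TPM) sums were lower than in every other tumor, and so were those of T and NK cells (1.21 against 3.50 to 14.2 TPM) and neutrophils (1.42 against 9.29 to 25.8 TPM). By TPM, stellate and fibroblast (30.4 against 18.2 to 74.4 TPM) and erythroid (1578 against 1020 to 11070 TPM) sums lay within the range of the others. *Ctnnb1* itself was at 820.9 TPM there and at 91.0 to 180.5 TPM elsewhere, and *Glul*, a β-catenin target of hepatocytes, at 1085 against 4197 to 8760 TPM. A sum over the gene does not show whether exon 3 was deleted. M1T2 and M1T3 were closer to each other than any other pair: their counts differed per gene by a median chi-square of 1.46, against 0.45 from sampling alone and 7.16 to 32.1 in the 9 other pairs among these 5 tumors. They differed by more than sampling noise, which does not tell 2 tumors from 2 parts of 1 tumor. As the labels name 2 tumors, they were kept as 2 samples. Results are also given with their average as 1 sample where that changes them. In whole tumors, fewer cells of a type and less RNA per cell cannot be told apart.

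TPM is a share of all transcripts and adds to the same total in every tumor, so the TPM of a gene also depends on all other genes. Over the 12518 genes that averaged 1 TPM or more, the median log2 ratio of this tumor to the median of the other 5 was 0.89 on the TPM scale. After scaling by TMM factors, which seek a common level for most genes, it was 0.165. The part of the low hepatocyte mRNAs in this shift was not tested. The members and the list medians are given on both scales for this tumor, and other genes by TPM, with a sentence on each gene whose place among the tumors differs TMM-scaled. The marker sums above are by TPM alone. The TMM factor of M1T1 was 1.61, against 0.756 to 1.02 in the others, so TMM-scaled its sums are lower relative to theirs. The places given for its cholangiocyte, stellate and erythroid sums hold for TPM and were not settled TMM-scaled. Folds between the TPM of 2 genes within a tumor do not depend on the scaling. Their log2 ratios were taken after adding 1 TPM to each gene, so they depend on it somewhat, most for low genes.

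The mRNAs of all 8 members were present in every tumor, with means from 4.05 to 51.4 TPM. By mean TPM over 6 tumors the order was *Akt1s1* (51.4 ± 11.8, SD), *Akt2* (35.9 ± 6.07), *Akt1* (31.9 ± 24.9), *Tsc2* (15.5 ± 4.40), *Mtor* (12.7 ± 3.66), *Rptor* (10.6 ± 4.69), *Tsc1* (4.13 ± 0.823) and *Rictor* (4.05 ± 2.18). *Akt1s1* lay at the 84.3th percentile of the 12518 genes by mean level and *Rictor* at the 24.5th. Of the 7 pairs of neighbors in this order, 0 passed an exact two-sided sign-flip permutation test over the 6 tumors after adjustment over the 7 pairs (adjusted p of 0.109 or more). The upper gene was higher in 6 of 6 tumors for *Akt1s1* over *Akt2* and for *Rptor* over *Tsc1*, and in 3 of 6 for *Tsc2* over *Mtor*. With 6 tumors this test cannot go below 0.03125. It treats the 6 tumors as separate units, although 3 come from each animal.

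**Figure D1:**
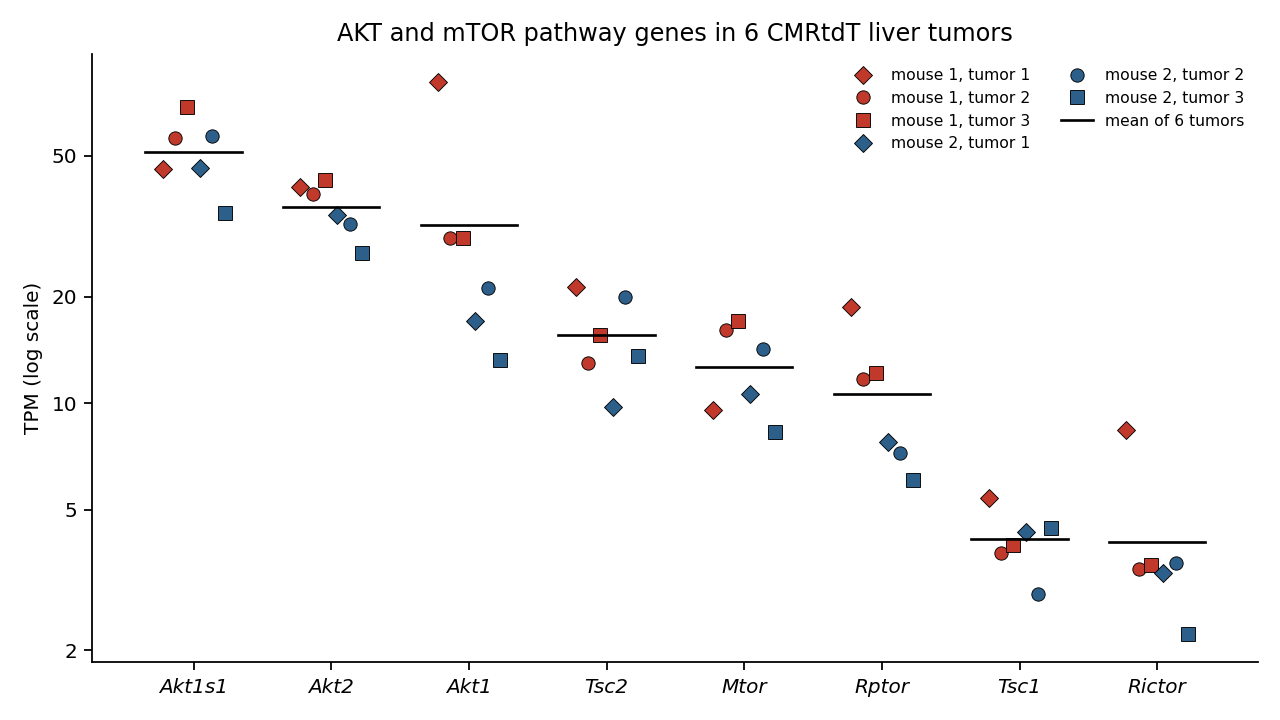
TPM (log scale) of the 8 genes, ordered by mean, in each of the 6 tumors; color marks the mouse, symbol the tumor, and the line the mean of 6. *Akt1* in M1T1, at 81.1 TPM, stands well above the 13.3 to 29.4 TPM of the other tumors, while *Akt2* spans only 26.6 to 42.6 TPM.

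The AKT kinases differed in how they varied. *Akt1* (GRCm38 chr12:112653821-112674884) is the broadly expressed AKT kinase tied to growth and survival. Its level was 81.1, 29.4 and 29.3 TPM in M1T1, M1T2 and M1T3 and 17.05, 21.2 and 13.3 TPM in M2T1, M2T2 and M2T3, from 743 to 3672 estimated reads. All 3 tumors of mouse 1 were above all 3 of mouse 2, as was the case for 41.9% of the 12518 genes of a mean of 1 TPM or more, and M1T1 was 3.82-fold above the median of the other 5. *Akt1* thus had the widest spread of the 8 genes, a coefficient of variation of 78.3%, which was 32.8% without that tumor.

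*Akt2* (chr7:27591552-27640826), the insulin-responsive AKT kinase of liver, had a coefficient of variation of 16.9%, the lowest of the 8 by TPM over 6 tumors. Without M1T1 it was 17.8%, above those of *Tsc1* (15.8%) and *Rictor* (17.3%). It measured 40.9, 39.1 and 42.6 TPM in M1T1, M1T2 and M1T3 and 34.1, 32.2 and 26.6 TPM in those of mouse 2. The 3 tumors of mouse 1 again lay above the 3 of mouse 2 on this scale, but by at most 1.60-fold between any 2 tumors.

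*Akt2* was therefore the more abundant of the pair in 5 of 6 tumors. The ratio of *Akt2* to *Akt1* was 1.33 and 1.45 in M1T2 and M1T3, and 2.00, 1.52 and 2.00 in M2T1, M2T2 and M2T3. In M1T1 it was turned around, at 0.505, beside a hepatocyte marker sum of 1728 against at least 33760 TPM, whose part in this was not tested. Over 6 tumors the mean log2 ratio was 0.41 ± 0.71 (SD), and it did not pass the exact sign-flip permutation test (p = 0.25, adjusted over 4 ratios 0.333). Without M1T1 it was 0.68 ± 0.26 (n = 5), with *Akt2* higher in 5 of 5, at the smallest exact permutation p that 5 tumors allow, 0.0625. Between the mice, the mean log2 ratio was -0.02 in mouse 1 and 0.83 in mouse 2, a difference of 0.84 with an exact permutation p of 0.1, the smallest that 3 against 3 allows.

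**Figure D2:**
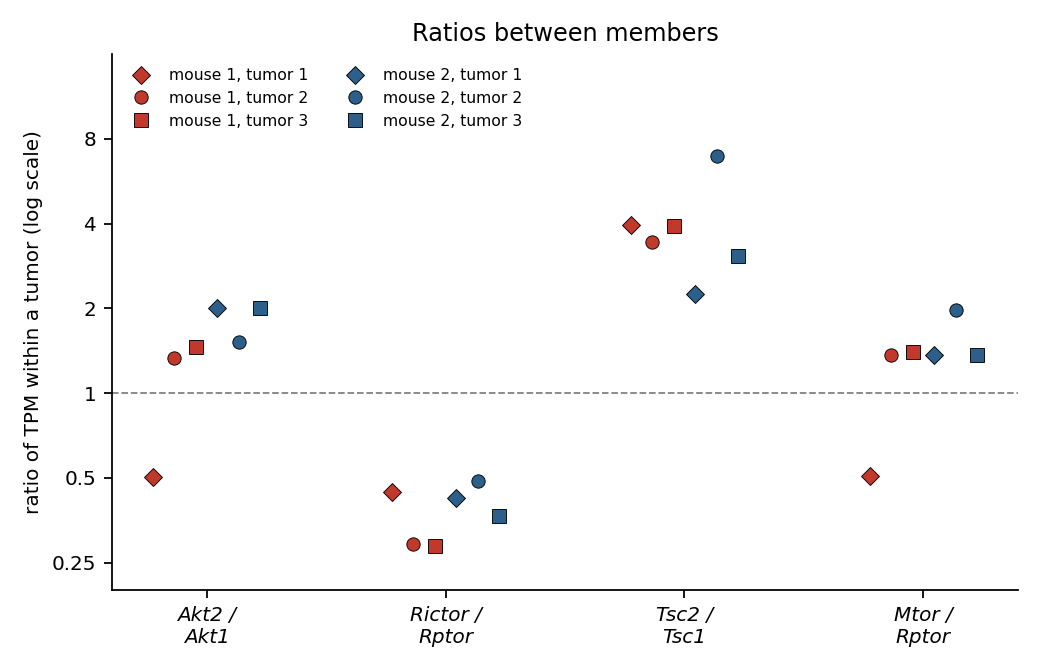
Ratio of TPM between 2 genes within each tumor (log scale; dashed line, equal levels), colored by mouse with a symbol per tumor. M1T1 lies below 1 for *Akt2* over *Akt1* (0.505) and *Mtor* over *Rptor* (0.510), where the other 5 tumors lie above.

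Because the tumors carry an active β-catenin and AKT controls FOXO factors, the 250 bases before the start of each member gene were read from RefSeq (GRCm38.p6) and searched on both strands for CTTTGAT (a core of TCF/LEF sites, through which β-catenin acts), GTAAACA (a core of FOXO sites) and CACGTG (the E-box of MYC and SREBF1-type factors). The table gave 12 starts for the 8 genes. The first *Akt2* start held 2 TCF/LEF matches, a letter pattern found in 3.21% of 32851 mouse promoters of this length, and the first *Akt1* start held 1 FOXO match, found in 3.17%. The E-box, found in 6.02%, was in none of the 12. These windows are shown 5′ to 3′ on the strand of the gene, *Akt2* from chr7:27591302-27591551 on the plus strand and *Akt1* from chr12:112674885-112675134 on the minus strand, with matches in capitals.
Akt2: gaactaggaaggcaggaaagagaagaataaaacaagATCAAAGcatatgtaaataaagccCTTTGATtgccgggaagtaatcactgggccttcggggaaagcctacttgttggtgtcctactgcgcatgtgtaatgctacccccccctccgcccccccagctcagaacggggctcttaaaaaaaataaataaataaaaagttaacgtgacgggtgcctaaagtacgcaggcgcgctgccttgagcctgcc
Akt1: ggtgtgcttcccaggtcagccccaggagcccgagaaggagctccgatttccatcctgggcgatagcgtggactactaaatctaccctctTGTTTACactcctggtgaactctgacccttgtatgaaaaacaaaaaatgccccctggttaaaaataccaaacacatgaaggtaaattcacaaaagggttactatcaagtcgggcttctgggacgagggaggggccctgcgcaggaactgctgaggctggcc
The *Akt2* matches lie 214 to 208 and 190 to 184 bases before the start, the former on the opposite strand, and the *Akt1* match lies 161 to 155 bases before it, also on the opposite strand. The motifs do not overlap one another. A match of letters is a description and does not show that a factor binds there.

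Among the inhibitors, *Akt1s1* (chr7:44849224-44855421) was the most abundant member. It measured 45.8, 56.1 and 68.9 TPM in M1T1, M1T2 and M1T3 and 46.3, 56.8 and 34.5 TPM in those of mouse 2. By TPM the mice overlapped and no tumor stood apart, while TMM-scaled M1T1 was below all others, at 28.4 against 45.7 to 67.9. *Akt1s1* exceeded *Akt2* in 6 of 6 tumors, by a mean log2 ratio of 0.49 ± 0.23 (SD).

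*Tsc2* (chr17:24595816-24632676) encodes tuberin, the GTPase activating subunit that turns RHEB off, and *Tsc1* (chr2:28640993-28691172) encodes hamartin, which stabilizes it. *Tsc2* was at 21.3, 13.0 and 15.6 TPM in M1T1, M1T2 and M1T3 and at 9.75, 20.0 and 13.6 TPM in those of mouse 2. *Tsc1* was at 5.38, 3.77 and 3.97 TPM in mouse 1 and at 4.33, 2.89 and 4.42 TPM in mouse 2. For neither gene were the mice separated. *Tsc2* exceeded *Tsc1* in 6 of 6 tumors, from 2.25-fold to 6.93-fold, with a mean log2 ratio of 1.66 ± 0.47 (SD) at the smallest exact permutation p that 6 tumors allow, 0.03125 (adjusted over 4 ratios 0.0625). Counting coding transcripts alone, the mean log2 ratio was 1.15. With M1T2 and M1T3 averaged as 1 sample it was 1.67 (adjusted exact permutation p = 0.125). The smallest unadjusted p is then 0.0625.

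The kinase *Mtor* (chr4:148448582-148557685) was at 9.55, 16.1 and 17.1 TPM in M1T1, M1T2 and M1T3 and at 10.6, 14.3 and 8.31 TPM in those of mouse 2. By TPM M1T1 was thus the second lowest, and TMM-scaled it was the lowest. *Rptor* (chr11:119602905-119899591), the scaffold that brings substrates to mTORC1, was at 18.7, 11.7 and 12.2 TPM in mouse 1 and at 7.75, 7.24 and 6.06 TPM in mouse 2, and all tumors of mouse 1 lay above those of mouse 2. *Rictor* (chr15:6708349-6800401), the defining subunit of mTORC2, was at 8.38 TPM in M1T1 and between 2.22 and 3.53 TPM in the other 5. That gap is 0.680 of the whole range on the log2 scale, above the 95% critical value of Dixon's test for 6 values, which 38.8% of the 12518 genes also passed. By TPM no other member passed it. TMM-scaled, the ratio of *Rictor* was 0.550 and did not pass, and that of *Akt2*, for which M1T1 was the lowest, was 0.628 and did, as did 36.0% of all genes.

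*Rictor* was below *Rptor* in 6 of 6 tumors, at 0.287 to 0.488 of its level, with a mean log2 ratio of -1.20 ± 0.28 (SD; exact permutation p = 0.03125, the smallest possible, adjusted 0.0625). On coding transcripts alone this difference shrank to -0.25 (adjusted exact permutation p = 0.25), since much of the *Rptor* signal lay on transcripts that are not annotated as coding. With M1T2 and M1T3 averaged as 1 sample the mean log2 ratio of *Rictor* to *Rptor* was -1.13 (adjusted exact permutation p = 0.125). *Mtor* exceeded *Rptor* by 1.37-fold to 1.97-fold in 5 tumors and was at 0.510 of it in M1T1. The mean log2 ratio over 6 was 0.28 ± 0.61 (SD), which did not pass (adjusted exact permutation p = 0.406), and without that tumor it was 0.52 ± 0.21 (n = 5). On coding transcripts it was 1.16 (adjusted exact permutation p = 0.0625).

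In M1T1 the members thus did not move as 1 block. By TPM, 5 of the 8 (*Akt1*, *Rictor*, *Rptor*, *Tsc1* and *Tsc2*) were above all 5 other tumors, as were 62.6% of all genes, and 0 were below them, as were 21.8%. TMM-scaled, *Akt1* (50.3 against 17.6 to 29.1) and *Rictor* (5.20 against 2.93 to 3.83) were above all others, and 45.3% of all genes were. *Akt2* (25.4 against 34.8 to 42.0), *Akt1s1* and *Mtor* (5.92 against 11.0 to 16.9) were below all others, as were 35.9% of all genes. The log2 ratio of *Akt1* to the median of the other tumors was 1.89 by TPM and 1.10 TMM-scaled, above the shift of all genes on either scale, while that of *Mtor* was -0.53 and -1.25, below it on either. *Akt2* (0.26 and -0.59), *Tsc1* (0.36 and -0.18) and *Tsc2* (0.61 and -0.20) changed sign with the scale. *Akt1s1* was at -0.29 and -0.95, *Rptor* at 1.17 and 0.35 and *Rictor* at 1.09 and 0.48. These are values of 1 tumor and carry no test.

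**Figure D3:**
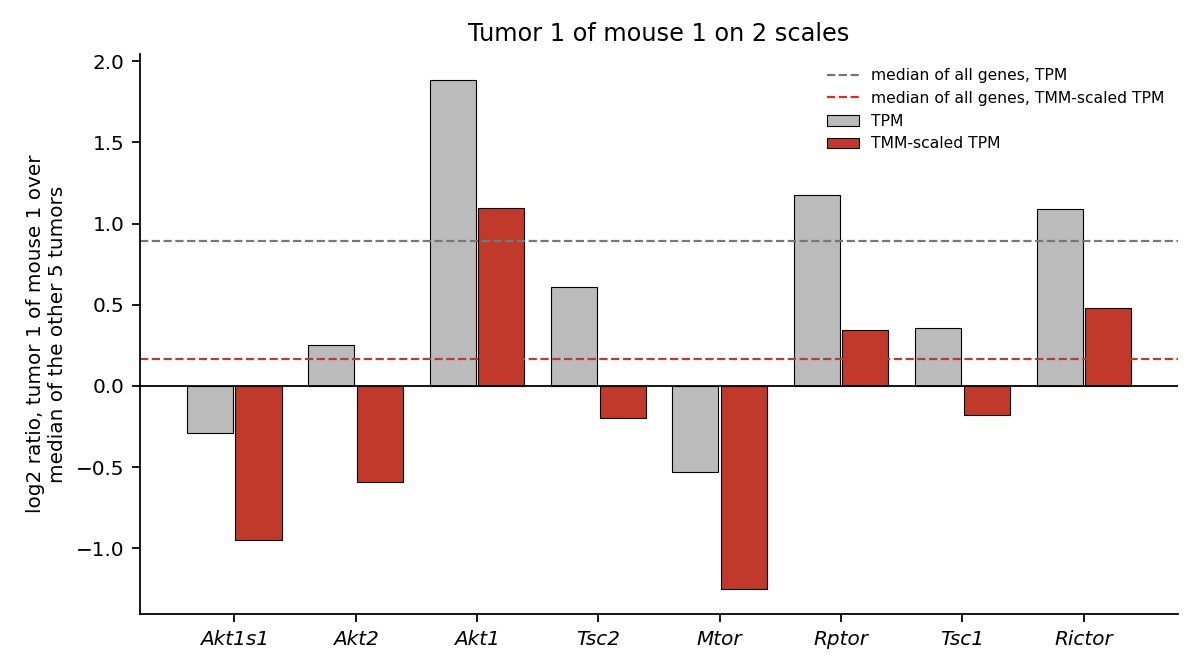
Log2 ratio of each gene in M1T1 to the median of the other 5 tumors, on the TPM scale (grey) and TMM-scaled (red), with dashed lines at the median of all 12518 genes (0.89 and 0.165). *Akt1*, *Rptor* and *Rictor* are above both lines and the other 5 genes below both, while *Akt2*, *Tsc1* and *Tsc2* change sign between scales.

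At the other end, M2T3 had the lowest TPM for 6 of the 8 members, all but *Tsc1* and *Tsc2*, and it was the lowest tumor for 43.5% of the 12518 genes. TMM-scaled it was lowest for 2, *Akt1* and *Rictor*, and for 24.1% of all genes, while M1T1 was lowest for *Akt2*, *Akt1s1* and *Mtor*. The hepatocyte marker sum of M2T3, 58840 TPM, was the highest.

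The values of *Rptor* and *Tsc2* depend on which transcripts are counted. *Rptor* has 12 transcripts in the tables, 2 of them coding, and these held 33.3% to 62.7% of its TPM and 35.5% to 70.5% of its reads. The full-length coding transcript Rptor-201 held 43.1% ± 12.8 (SD, n = 6) of its TPM, and Rptor-211, which is annotated as a target of nonsense-mediated decay and is nearly as long, held 42.3% ± 11.9. Rptor-203, a transcript with a retained intron, held 12.2% ± 3.98. Both are shares of 1 total, so a larger share of 1 form leaves less for the other. The 201 and 211 forms held 62.7% and 22.6% in M1T3 and 29.7% and 56.8% in M2T3. In M1T2, the tumor most like M1T3, they held 36.5% and 47.6%.

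For *Tsc2*, coding transcripts held 41.3% to 92.3% of the TPM but 90.5% to 99.5% of the reads, because short transcripts with retained introns weigh more per read in TPM. The 454-base Tsc2-210 held 31.5% and 33.3% of the TPM in M2T2 and M2T3, 10.7% in M1T3 and 0 in the other 3. Its coding signal was spread over Tsc2-221 (19.2% of TPM on average), Tsc2-217 (18.1%), Tsc2-201 (13.3%) and Tsc2-205 (10.4%). The level of *Tsc2* in M2T2, 20.0 TPM, rests in part on such short forms. *Tsc2* also shares 6.35% of its 31-base words with *Pkd1* and 4.89% with *Nthl1*, its neighbors, on the opposite strand. No source used here says whether counting used strand, so reads of these overlaps cannot be told apart, with *Pkd1* at 4.92 to 25.3 TPM and *Nthl1* at 3.24 to 10.6 TPM.

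The other 6 members were carried by coding transcripts at 76.2% or more of TPM in every tumor. Akt1-201 held 97.0% ± 1.84 of *Akt1*, Akt2-201 80.3% ± 5.17 of *Akt2* and Rictor-201 92.3% ± 5.30 of *Rictor* (SD, n = 6). Akt1s1-201 held 64.5% ± 5.55 of *Akt1s1*, beside 11.0% ± 5.75 for the 485-base Akt1s1-209. Mtor-202 held 77.1% ± 8.24 of *Mtor*, with Mtor-201 at 11.8% ± 3.42 and the retained-intron form Mtor-204 at 11.0% ± 9.49. Tsc1-201 and Tsc1-202, whose lengths are 7674 and 7682 bases, held 72.2% ± 15.8 and 18.1% ± 7.60 of *Tsc1*. The share of Tsc1-201 was 41.8% in M1T1 and 71.0% to 85.2% elsewhere. *Akt2* shares 8.97% of its words with the pseudogene *Akt2-ps*, which was at 0.0464 TPM in M1T1 and listed at 0 in the others.

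**Figure D4:**
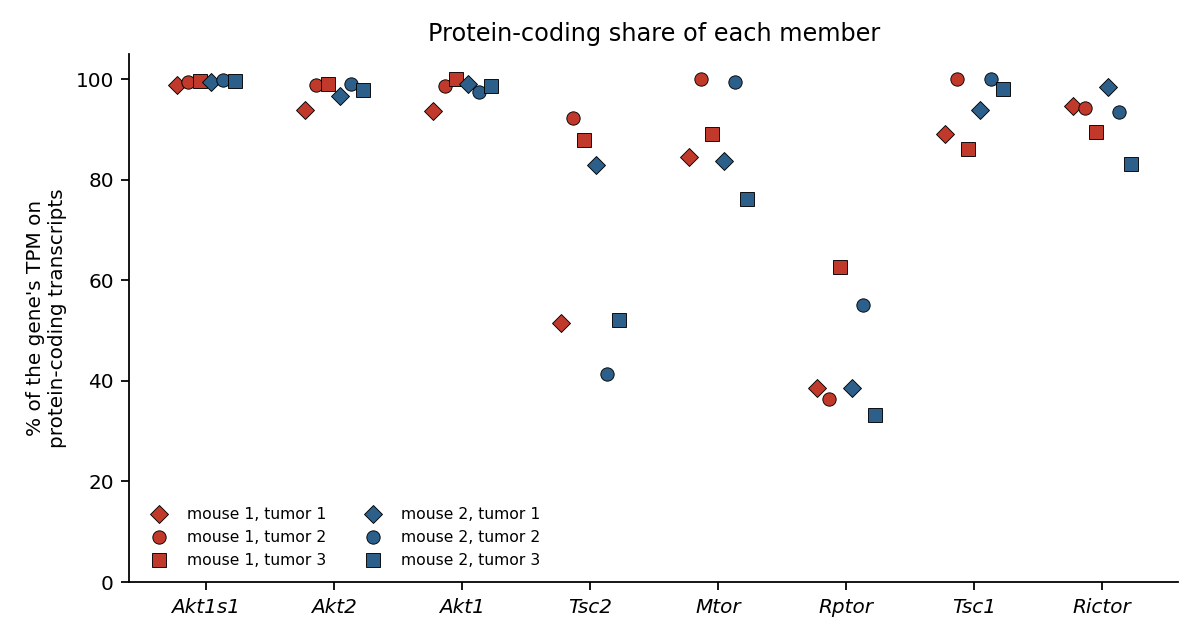
Share of each gene's TPM on protein-coding transcripts in each tumor, in percent, with color for the mouse and symbol for the tumor. *Rptor* lies between 33.3% and 62.7% and *Tsc2* between 41.3% and 92.3%, and the other 6 genes at 76.2% or above.

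Between the mice, no member passed a test on the counts. The question was whether tumors of 1 animal share a level of the pathway genes that differs from the other animal. By TPM, both M1T2 and M1T3 were above all 3 tumors of mouse 2 for *Akt1*, *Akt2*, *Mtor* and *Rptor*, 4 of 8 members, and the same held for 57.4% of all genes. TMM-scaled, it held for *Akt1*, *Mtor* and *Rptor* and for 40.0% of all genes. All 3 tumors of mouse 1 lay above all 3 of mouse 2 for *Akt1*, *Akt2* and *Rptor* by TPM (41.9% of all genes) and for *Akt1* and *Rptor* TMM-scaled (23.2%). In edgeR's quasi-likelihood test with TMM factors over 13268 genes, 0 genes passed an adjusted p of 0.05 (0.0% of those tested, with 1449 at an unadjusted p under 0.05), and 0 of 8 members did. The log2 fold change of mouse 2 over mouse 1 was -0.51 (SE 0.28) for *Akt1* and 0.64 (SE 0.30) for *Tsc1*, with Benjamini-Hochberg adjusted p-values of 0.567 and 0.515. It was 0.35 (SE 0.27) for *Akt2*, 0.48 (SE 0.34) for *Akt1s1*, 0.13 (SE 0.48) for *Mtor*, -0.20 (SE 0.19) for *Rptor*, 0.02 (SE 0.30) for *Rictor* and 0.05 (SE 0.25) for *Tsc2*.

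Without M1T1 the same test called 168 of 13374 genes (1.26%) and again 0 of 8 members. The log2 fold changes were then -0.24 (SE 0.13) for *Akt1*, 0.17 (SE 0.14) for *Akt2*, 0.20 (SE 0.13) for *Akt1s1*, -0.23 (SE 0.23) for *Mtor*, -0.23 (SE 0.13) for *Rptor*, 0.32 (SE 0.19) for *Rictor*, 0.58 (SE 0.29) for *Tsc1* and -0.12 (SE 0.12) for *Tsc2*, with adjusted p-values of 0.342 to 0.618. The direction held under all 20 alternative settings for *Akt1* and *Rptor* (lower in mouse 2) and *Tsc1* (higher in mouse 2), and it turned under at least 1 setting for the other 5. These directions are those of the fit on counts. By mean TPM 8 of 8 members were lower in mouse 2, as were 84.8% of all genes, and the fit with 6 tumors had the opposite sign for 6 of them, all but *Akt1* and *Rptor*. The mean TPM of *Tsc1*, for example, was 4.37 in mouse 1 and 3.88 in mouse 2. With M1T2 and M1T3 averaged as 1 sample, and M1T1 left out, 1 gene was called in place of 168. These tests set 1 animal against 1 other, and their error is only the tumor-to-tumor spread within each.

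**Figure D5:**
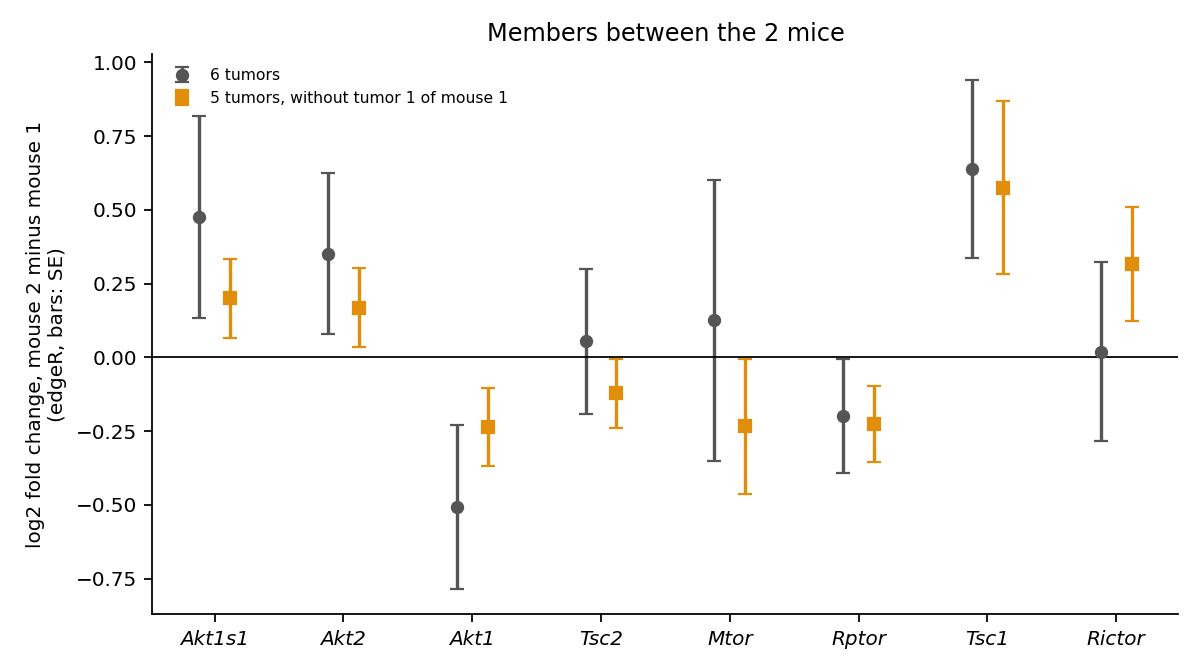
Log2 fold change (edgeR) of mouse 2 over mouse 1 for each member with 6 tumors (grey circles) and without M1T1 (orange squares); bars are 1 SE. Values run from -0.51 for *Akt1* to 0.64 for *Tsc1*, and none passed the adjusted threshold.

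Genes around the 8 members were described by 14 lists of 143 genes that follow the signal from receptor to target, of which 135 averaged 1 TPM or more and 140 were tested. With 6 tumors 0 of 140 passed between the mice, against 0.0% of all genes. Without M1T1, 2 of 140 passed, against 1.26% of all genes. *Bcl6*, a transcriptional repressor and FOXO target, was lower in mouse 2, at 4.19, 4.73 and 2.20 TPM against 23.1 and 21.9 TPM in M1T2 and M1T3 (log2 fold change -2.09, SE 0.24, edgeR adjusted p = 0.0321). *Lamtor5*, a Ragulator subunit that anchors mTORC1 to lysosomes, was higher in mouse 2 by a log2 fold change of 1.04 (SE 0.12, edgeR adjusted p = 0.0325), at 91.8, 105.9 and 84.1 TPM against 64.2 and 66.5 TPM. Neither passed with M1T2 and M1T3 averaged as 1 sample. In M1T1, *Bcl6* was at 21.9 TPM and *Lamtor5* at 147.5 TPM. *Lamtor5* was above all other tumors there by TPM and inside their range TMM-scaled (91.5 against 63.6 to 114.7).

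Upstream, the median log2 ratio of M1T1 to the median of the other tumors was 1.13 by TPM and 0.30 TMM-scaled for the 6 expressed insulin receptor and adaptor genes, against 0.89 and 0.165 for all genes. Within that list the members went apart. *Insr*, the insulin receptor, was at 8.53 TPM there and 14.6 to 24.1 TPM elsewhere, and *Grb14*, an inhibitor of it, at 7.01 against 30.0 to 44.0 TPM. *Irs2*, an adaptor that links the receptor to PI3K, was at 22.8 against 2.45 to 7.14 TPM and *Shc1* at 36.5 against 16.9 to 28.4 TPM. *Irs1* was at 6.56 against 1.15 to 2.90 TPM. TMM-scaled, *Shc1* lay inside the range of the others (22.6 against 19.4 to 28.0).

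For the class I PI3K subunits the median was 0.62 by TPM and -0.08 TMM-scaled over 6 expressed genes. By TPM 3 of the 6 were above all other tumors and 1 below, where all genes gave 62.6% and 21.8%. TMM-scaled, 1 was above and 2 were below, where all genes gave 45.3% and 35.9%. Neither share of this list exceeded that of all genes on either scale. *Pik3r1*, the main regulatory subunit in liver, was at 4.42 TPM in M1T1 and 13.4 to 23.3 TPM in the others. *Pik3r3* was at 13.0 against 0.340 to 1.04 TPM and *Pik3r2* at 25.7 against 5.49 to 17.1 TPM. *Pik3ca*, the catalytic subunit most often mutated in cancer, was at 14.7 against 5.52 to 11.6 TPM, and *Pik3r5* at 0.533 against 0.196 to 0.893 TPM. TMM-scaled, *Pik3r2* (15.96 against 6.34 to 16.8) and *Pik3ca* (9.08 against 5.98 to 11.5) lay inside the range of the others.

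The brakes on the pathway also went apart. *Trib3*, a pseudokinase that binds and inhibits AKT, was at 2.37 TPM in M1T1 and at 29.1, 29.2, 32.1, 42.6 and 17.2 TPM in the other 5. *Inppl1*, a phosphatase of the PI3K lipid product, was at 29.9 against 5.48 to 16.4 TPM, *Phlpp2* at 6.63 against 0.380 to 1.04 TPM and *Inpp4b* at 10.1 against 0.0412 to 0.511 TPM. Of the 9 genes on this list 7 were above all other tumors and 2 below by TPM, and 5 and 2 TMM-scaled (all genes, 62.6% and 21.8% by TPM, and 45.3% and 35.9% TMM-scaled), with a median of 1.36 and 0.47. *Inpp4a* was at 4.66 against 2.14 to 3.48 TPM, but inside the range TMM-scaled (2.89 against 2.24 to 4.02). *Pdpk1*, encoding PDK1, was at 15.6 against 4.69 to 7.89 TPM. For the list of AKT kinases and this upstream kinase, the median of 4 genes was 1.62 by TPM and 0.83 TMM-scaled. These were the highest medians of the 14 lists. By TPM 3 of the 4 genes were above all other tumors and 0 below. TMM-scaled, 3 were above and 1, *Akt2*, was below.

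Among other AKT substrates, *Acly*, which makes cytosolic acetyl-CoA, was at 223.3 TPM in that tumor and 22.3 to 52.7 TPM in the others, *Gsk3a* at 48.8 against 17.3 to 36.4 TPM and *Gsk3b* at 16.1 against 3.83 to 11.98 TPM. *Bad*, a cell death protein held inactive by AKT, was at 32.5 TPM there and within 19.9 to 21.4 TPM in all the others. TMM-scaled, *Bad* (20.1 against 19.8 to 27.5), *Gsk3a* (30.3 against 22.9 to 35.9) and *Gsk3b* (9.997 against 5.06 to 11.8) lay inside the range of the others. The list's median was 0.99 by TPM and 0.08 TMM-scaled over 8 genes. In the TSC complex list, *Rheb* was at 59.7 TPM, inside the 34.4 to 59.8 TPM of the other tumors, and *Tbc1d7*, the third subunit of the complex, at 19.6 against 8.58 to 11.7 TPM, and the median of 5 genes was 0.61 and -0.18. TMM-scaled, *Tbc1d7* was inside the range (12.2 against 9.90 to 12.7) and *Rheb* below it (37.0 against 39.7 to 59.3).

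The remaining mTOR complex subunits differed most in *Deptor*, an inhibitor of both complexes, at 2.12 TPM in M1T1 against 41.6, 40.6, 27.7, 24.7 and 21.7 TPM in the other 5. *Mapkap1*, encoding the mTORC2 subunit SIN1, was at 24.5 against 23.1 to 34.6 TPM, and TMM-scaled below all others (15.2 against 25.04 to 34.1). *Prr5* was at 2.70 against 5.65 to 13.9 TPM and *Telo2*, which helps to assemble the kinase, at 16.1 against 1.82 to 2.95 TPM. Over 11 expressed genes of this list 6 were above all other tumors and 2 below by TPM, and 3 and 5 TMM-scaled, with a median of 1.09 and 0.35. As shares these are 54.5% and 18.2% by TPM, where all genes gave 62.6% and 21.8%, and 27.3% and 45.5% TMM-scaled, where they gave 45.3% and 35.9%.

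Of the lysosomal RAG and Ragulator genes, *Lamtor2* was at 97.2 TPM in M1T1 against 108.1 to 150.0 TPM elsewhere, *Lamtor1* at 109.9 against 72.8 to 93.5 TPM and *Flcn* at 23.4 against 9.78 to 13.3 TPM. TMM-scaled, *Lamtor1* was below all other tumors (68.2 against 87.5 to 101.3) and *Flcn* inside their range (14.5 against 9.93 to 14.8). The list's median was 0.47 by TPM and -0.26 TMM-scaled over 13 genes.

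In the GATOR, KICSTOR and amino acid sensor list, 15 of 17 genes were above all other tumors by TPM (88.2%, against 62.6% of all genes) and 12 TMM-scaled (70.6%, against 45.3%), with a median of 1.10 and 0.35. It held *Sec13* at 135.0 against 47.7 to 79.1 TPM, *Seh1l* at 41.9 against 14.4 to 24.8 TPM and *Kptn* at 21.2 against 7.83 to 13.1 TPM. *Castor2* was at 4.81 against 0.225 to 1.88 TPM, and *Depdc5* at 5.51 against 2.08 to 10.6 TPM. TMM-scaled, *Sec13* was inside the range (83.7 against 55.3 to 85.7). Among AMPK and stress inputs, whose median was 0.80 and -0.04, *Prkab2* was at 30.4 against 0.436 to 1.49 TPM, *Prkag2* at 27.2 against 9.18 to 12.8 TPM, *Prkag1* at 61.9 against 29.3 to 46.6 TPM, *Stk11* (LKB1) at 46.3 against 18.0 to 42.5 TPM and *Cab39* at 36.0 against 18.3 to 32.8 TPM. TMM-scaled, *Prkag1* (38.4 against 38.7 to 47.4) and *Cab39* (22.3 against 22.8 to 32.3) were below all other tumors and *Stk11* inside their range (28.7 against 21.6 to 42.1).

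Downstream of mTORC1, the ribosomal protein *Rps6* was at 3290 TPM in M1T1 and 400.0 to 752.1 TPM in the others. Whether reads of near-identical copies of this gene enter the value was not measured, so it is uncertain. *Eif4ebp1*, a translation repressor released by mTORC1, was at 12.2 against 46.0 to 110.7 TPM, and *Eif4b* at 149.2 against 62.8 to 114.0 TPM. *Rps6kb1*, the S6 kinase, was at 17.8 against 2.73 to 9.40 TPM and *Eef2k* at 2.28 against 0.786 to 2.95 TPM. The list's median was 0.74 by TPM and -0.10 TMM-scaled over 18 genes, and *Eif4b* was inside the range TMM-scaled (92.5 against 83.1 to 112.3). For mTORC2, *Sgk2*, a liver-expressed kinase, was at 1.01 against 33.1 to 68.5 TPM, *Sgk1* at 29.5 against 5.22 to 9.75 TPM, *Prkca* at 15.1 against 2.14 to 4.22 TPM and *Ndrg1* at 23.1 against 11.9 to 92.3 TPM; that list's median was 1.02 and 0.24 over 6 genes. TMM-scaled, *Ndrg1* was below all others (14.3 against 15.7 to 99.99).

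FOXO target genes were the list lowest in M1T1, with a median log2 ratio of -1.22 by TPM and -1.91 TMM-scaled over 12 genes, 7 of them (58.3%) below all other tumors on either scale, against 21.8% of all genes by TPM and 35.9% TMM-scaled, and 3 of the 12 above, against 62.6% and 45.3%. *Igfbp1*, a secreted IGF binding protein, was at 11.0 TPM there and 826.1, 834.5, 1043, 733.0 and 256.1 TPM in the other 5. The gluconeogenic *G6pc1* was at 5.77 against 43.8 to 140.0 TPM, and *Pck1* at 9.16 against 9.63 to 218.4 TPM. *Sesn3*, another target, was at 16.4 against 3.31 to 5.82 TPM. Several of these genes are made chiefly by hepatocytes, and they were low there beside the hepatocyte marker sum of 1728 against at least 33760 TPM; its part in the result was not tested.

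The SREBF1 lipogenic list was divided as well, with a median of 0.05 by TPM and -0.80 TMM-scaled over 12 genes. By TPM 4 of the 12 were below all other tumors and 3 above, and TMM-scaled 8 were below (66.7%, against 35.9% of all genes) and 2 above (16.7%, against 45.3%). *Scd1*, the stearoyl-CoA desaturase, was at 72.6 TPM in M1T1, 586.6 and 608.0 TPM in the other tumors of mouse 1, and 1225, 1023 and 1594 TPM in mouse 2. *Me1* was at 17.5 against 100.2 to 283.2 TPM and *Thrsp* at 8.30 against 79.6 to 163.0 TPM. *Fasn*, the fatty acid synthase, was at 74.7 TPM, inside the 67.2 to 171.1 TPM of the others, and *Elovl6* at 27.8 TPM, inside 12.4 to 30.0 TPM. TMM-scaled, *Fasn* was below all others (46.4 against 88.8 to 185.3). The hepatocyte marker sum given above was also low in that tumor, and its part in this was not tested.

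Over all 135 expressed pathway genes, 81 were above all other tumors and 28 below by TPM, and 50 and 48 TMM-scaled. These are 60.0% and 20.7% by TPM, near the 62.6% and 21.8% of all genes, and 37.0% and 35.6% TMM-scaled, where all genes gave 45.3% and 35.9%.

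The genes whose profile over the 6 tumors was most like a member's were found by the root mean square difference of centered log2(TPM + 1), among genes that averaged 5 TPM or more. Nearest was *Faap100* to *Rptor*, at a difference of 0.013. For *Mtor* they were *Srpra* (0.037) and *Map2k2* (0.063), for *Akt2* *Mgrn1* (0.043) and *Chd1l* (0.054), and for *Akt1* *Foxj3* (0.053) and *Phlda1* (0.054). *Ankrd11* was also near *Rptor* (0.050), *Sdf2* and *Aaas* were near *Rictor* (0.049 each), *Dolpp1* (0.065) and *Lysmd1* (0.081) near *Tsc1*, *Dmac1* (0.099) near *Tsc2*, and *Rabac1* (0.080) and *Ptgr2* (0.083) near *Akt1s1*. *Faap100*, for example, was at 12.3, 7.64 and 8.11 TPM in mouse 1 and 4.87, 4.65 and 3.77 TPM in mouse 2. Such likeness over 6 tumors, 1 of which stands apart, is a description.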

How the data were processed

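RNAseq values of 6 liver tumors from 2 CMRtdT mice were all used. Each table of the authors lists Ensembl mouse transcripts with length, estimated counts and TPM in the layout of Salmon. The authors deposited estimated counts, which are fragments assigned to transcripts and carry no normalization. The deposited TPM are scaled by effective length and depth to a fixed sum. The methods describe poly A libraries read as paired ends, while the series text speaks of total RNA. GRCm38, BWA and Picard stand in the submitters' notes. No source used here gives the index release or strand setting.

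Transcript identifiers were looked up without version to GENCODE M39, used for names and transcript types alone (114813 of 116546 matched, and the other 1733 held 0.373% to 0.68% of a tumor's counts and were left out), and summed per gene. Positions and promoters came from RefSeq for GRCm38.p6. 1 listed symbol, *G6pc*, was read as *G6pc1*. Mouse 2 was compared with mouse 1 on rounded gene counts with edgeR 4.0.16 (quasi-likelihood, TMM, filterByExpr, two-sided, Benjamini-Hochberg), and with DESeq2 1.42.0 and limma-voom (limma 3.58.1) as alternatives. SEs of edgeR fold changes are the log2 fold change divided by the square root of F. TMM-scaled TPM is the TPM divided by the TMM factor, 1.61, 1.01 and 1.02 for M1T1, M1T2 and M1T3 and 0.867, 0.923 and 0.756 for those of mouse 2. Log2 ratios used a pseudocount of 1 TPM, which understates changes of low genes, and folds and shares did not. Exact sign-flip permutation tests were two-sided. Tests were tried on simulated data first.

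The members, the 14 pathway lists, the 10 marker lists and the rule for named genes were chosen with earlier results of these data known. The rule names the members, the 3 genes per list of the highest mean level and the 3 with the smallest p between the mice, *Trib3*, every list gene that passed, the 2 genes most like each member, and transcripts with at least 10% of a member's TPM. Some genes that the rule names are left out of this text. *Faap100*'s values, *Ctnnb1* and *Glul* were added after their values were seen. The alternatives were another tool, scaling, filter, pseudocount or transcript set, a block on tumor number, and each tumor left out once; 7 settings, which leave out M1T1 with another choice or average M1T2 and M1T3, and Dixon's ratio and the lowest tumor on the TMM-scaled values, were chosen after seeing the data. Software was Python 3.11.15 (scipy 1.17.1, pandas 2.3.3, numpy 2.4.6, matplotlib 3.10.9) and R 4.3.3.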

Additional observations from a re-analysis of the deposited data

Results flagged for a closer look

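M1T1 was far from the other 5 tumors in 1 member and in 2 ratios between members by Dixon's ratio, the gap to the nearest tumor as a share of the whole range on the log2 scale, read against the 95% critical value for 6 values. For *Rictor* the ratio was 0.680, with 8.38 TPM in that tumor and 2.22 to 3.53 TPM in the others. TMM-scaled it was 0.550 and did not pass, while *Akt2* did, at 0.628 with M1T1 the lowest. For the ratio of *Akt2* to *Akt1* it was 0.709, with 0.505 there and 1.33 to 2.00 elsewhere. For the ratio of *Mtor* to *Rptor* it was 0.727, with 0.510 there and 1.37 to 1.97 elsewhere. Chance flags about 1 in 20 groups, but 38.8% of all 12518 genes passed in these tumors, so such a value sets no gene apart from the rest of the transcriptome.

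Among the pathway genes named in the report, M1T1 was far above the others for *Acly* (0.631), *Bad* (0.848), *Flcn* (0.652), *Inpp4b* (0.843), *Phlpp2* (0.771), *Pik3r3* (0.820), *Prkab2* (0.822), *Prkag2* (0.705), *Prkca* (0.689), *Rps6* (0.701), *Sesn3* (0.670), *Sgk1* (0.656), *Tbc1d7* (0.637), *Telo2* (0.812), and far below them for *Deptor* (0.759), *Grb14* (0.784), *Igfbp1* (0.686), *Pik3r1* (0.651), *Scd1* (0.675), *Sgk2* (0.799), *Thrsp* (0.753), *Trib3* (0.659). These are values by TPM. TMM-scaled, *Bad*, *Flcn* and *Tbc1d7* lay inside the range of the other tumors, and *Acly* (0.587), *Prkag2* (0.274), *Sesn3* (0.616) and *Sgk1* (0.506) were above it without passing the critical value. Other named genes passed only TMM-scaled. With M1T1 the lowest, they include *Insr* (0.757), *Me1* (0.744), *G6pc1* (0.724), *Lamtor2* (0.708), *Eif4ebp1* (0.696) and *Lamtor1* (0.631). *Depdc5* (0.671) passed with M1T3 the highest. The part of cell makeup in these differences, with hepatocyte markers at 1728 against 33760 to 58840 TPM, was not tested.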

How the results depend on the processing

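0 of 8 members were called between the mice under any of the 20 alternatives. Over all genes, edgeR called 0 with 6 tumors, and so did limma-voom (708 at an unadjusted p under 0.05), RLE or library size scaling, no low-count filter, coding transcripts alone and M1T2 and M1T3 merged, while DESeq2 called 202, 2 of them pathway genes (*Bcl6* and *Castor2*). Leaving out 1 tumor, alone or with another choice, gave 0 to 1369 genes and 0 to 15 pathway genes. The calls appeared only without M1T1: 168 genes (2 pathway genes) in edgeR, 1369 (15) in DESeq2, 477 (4) in limma-voom, 151 (2) by library size alone, 153 (2) by RLE, 124 (2) on coding transcripts and 1 (0) with M1T2 and M1T3 as 1 sample, where fewer samples enter.

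With tumor number as a replicate block, 0 genes, 0 members and 0 pathway genes were called (800 genes at an unadjusted p under 0.05). Same-numbered tumors of the 2 mice correlated in their deviations by 0.025, -0.043 and 0.049, so they share only a number, and no other pairing was tried.

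The log2 fold changes of uncalled members turned in 25 of 160 cases. By library size alone they were -0.10 for *Akt2*, -0.22 for *Mtor*, -0.57 for *Rictor* and -0.40 for *Tsc2*, and, also without M1T1, -0.091 for *Akt2*, -0.05 for *Akt1s1*, -0.47 for *Mtor* and -0.38 for *Tsc2*. This scaling moves the median of all genes to -0.55, or -0.25 without that tumor. Without that tumor, *Mtor* and *Tsc2* were at -0.23 and -0.12 in edgeR, -0.24 and -0.13 in DESeq2, -0.27 and -0.12 in limma-voom, -0.24 and -0.13 by RLE, -0.22 and -0.17 on coding transcripts, and -0.24 and -0.14 with M1T2 and M1T3 as 1 sample. *Mtor* was at -0.07 without M2T2. *Rictor* was at -0.09 without M1T2, -0.10 without M1T3, -0.08 without M2T1 and -0.091 with M1T2 and M1T3 as 1 sample. Leaving out each tumor alone, the highest values were 0.364 for *Mtor*, 0.317 for *Rictor* and 0.174 for *Tsc2*. The cause was not tested.

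The 4 ratios kept their direction under every alternative run. Leaving out 1 tumor, the mean log2 ratio ran from 0.30 to 0.68 for *Akt2* over *Akt1*, -1.26 to -1.13 for *Rictor* over *Rptor*, 1.51 to 1.79 for *Tsc2* over *Tsc1* and 0.16 to 0.52 for *Mtor* over *Rptor*; 5 tumors cannot pass. On coding transcripts 3 members, in place of 5, lay outside the range of the other tumors in M1T1, and the mean TPM of *Rptor* was 4.69 and of *Tsc2* 10.01. With 2 animals and 1 condition, animal, position and batch cannot be told apart.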
